A study of Sus scrofa with 9 samples.

Results

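The nuclear-encoded genes of the mitochondrial respiratory chain were examined in 9 porcine hearts. Members were the rows of the deposited expression table whose gene symbol begins with NDUF, UQCR, COX4 to COX8 or ATP5, or is SDHA, SDHB, SDHC or SDHD. This gave 45 of the 25149 genes listed, of which 41 had at least 1 TPM in at least 3 hearts and were tested with the 11782 genes that passed the same filter. By complex, the members that passed were 22 of 23 for complex I, 2 of 3 for complex II, 4 of 4 for complex III, 7 of 9 for complex IV and 6 of 6 for complex V.

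The donors were female American Yorkshire pigs of 4 to 6 months, and every heart went through circulatory arrest and 15 min of warm ischemia. Group 1 (NRP+HOPE 24h, pigs 27, 28 and 30) had 60 min of normothermic regional perfusion, or NRP, a warm blood circulation restored in the donor before procurement, and was then stored for 24 h by hypothermic oxygenated perfusion (HOPE) at 8 °C. Group 2 (NRP+SCS 2h, pigs 24, 25 and 29) had the same NRP and 2 h of static cold storage (SCS) at 4 °C. Group 3 (No NRP+HOPE 2h, pigs 31, 33 and 34) was procured directly and kept for 2 h in HOPE at 8 °C. The HOPE perfusate of Groups 1 and 3 held donor packed red cells, while Group 2 lay in heart solution. All 9 hearts were then reperfused for 2 h on a warm blood-primed circuit, and 1 apex biopsy per heart was taken at the end, so no heart represents untreated myocardium. Storage method, storage time and temperature all differ between Groups 1 and 2, NRP, method and temperature between Groups 2 and 3, and NRP and storage time between Groups 1 and 3, so these factors cannot be told apart. Values are TPM, reads per gene corrected for gene length and scaled to a total of 1000000 in each heart. The read depth is unknown, and precision is shown by the spread between the 3 pigs of a group.

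The respiratory chain passes electrons from NADH (complex I) and succinate (complex II) through complex III to oxygen at complex IV, and complex V uses the resulting proton gradient to make ATP. Most subunits are encoded in the nucleus and imported, while a small set of core subunits of complexes I, III, IV and V is encoded by mitochondrial DNA. The working heart depends on this pathway for nearly all of its ATP, and interrupted oxygen supply followed by reperfusion is known to injure complex I in particular.

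The labels give the cell type as cardiomyocytes, but the biopsies were bulk tissue. Of 12 cardiomyocyte markers written (such as TNNT2 and MYH7), 8 were listed, all 8 passed the filter, and their summed level ranged from 31413 to 60085 TPM. All 7 endothelial markers that were listed, of 8 written, and all 5 listed fibroblast markers, of 6 written, also passed, with sums of 316 to 728 TPM and 669 to 1150 TPM. The neutrophil markers CSF3R and MPO were listed at 0 in every heart, as was the respiratory chain gene SDHA, so nothing is read from these zeros. In bulk tissue, fewer cells of a type and less RNA per cell cannot be told apart. The 13 mitochondrially encoded subunits took 38.2% (pig 30) to 55.3% (pig 27) of all TPM, so the values of every other gene depend on that share. Pig 30 stood apart with the lowest such share.

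The respiratory chain genes were among the most abundant nuclear transcripts of these hearts. Their median level over the 9 hearts was 248 TPM, beside 6.78 TPM for all genes tested, and 30 of the 41 lay in the top 10% of genes. Complex IV and V subunits had the highest medians, at 650 and 572 TPM, followed by complex III at 273 TPM, complex I at 164 TPM and complex II at 132 TPM. Together the 41 genes made up 0.864% (pig 28) to 1.64% (pig 30) of all TPM.

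**Figure D1:**
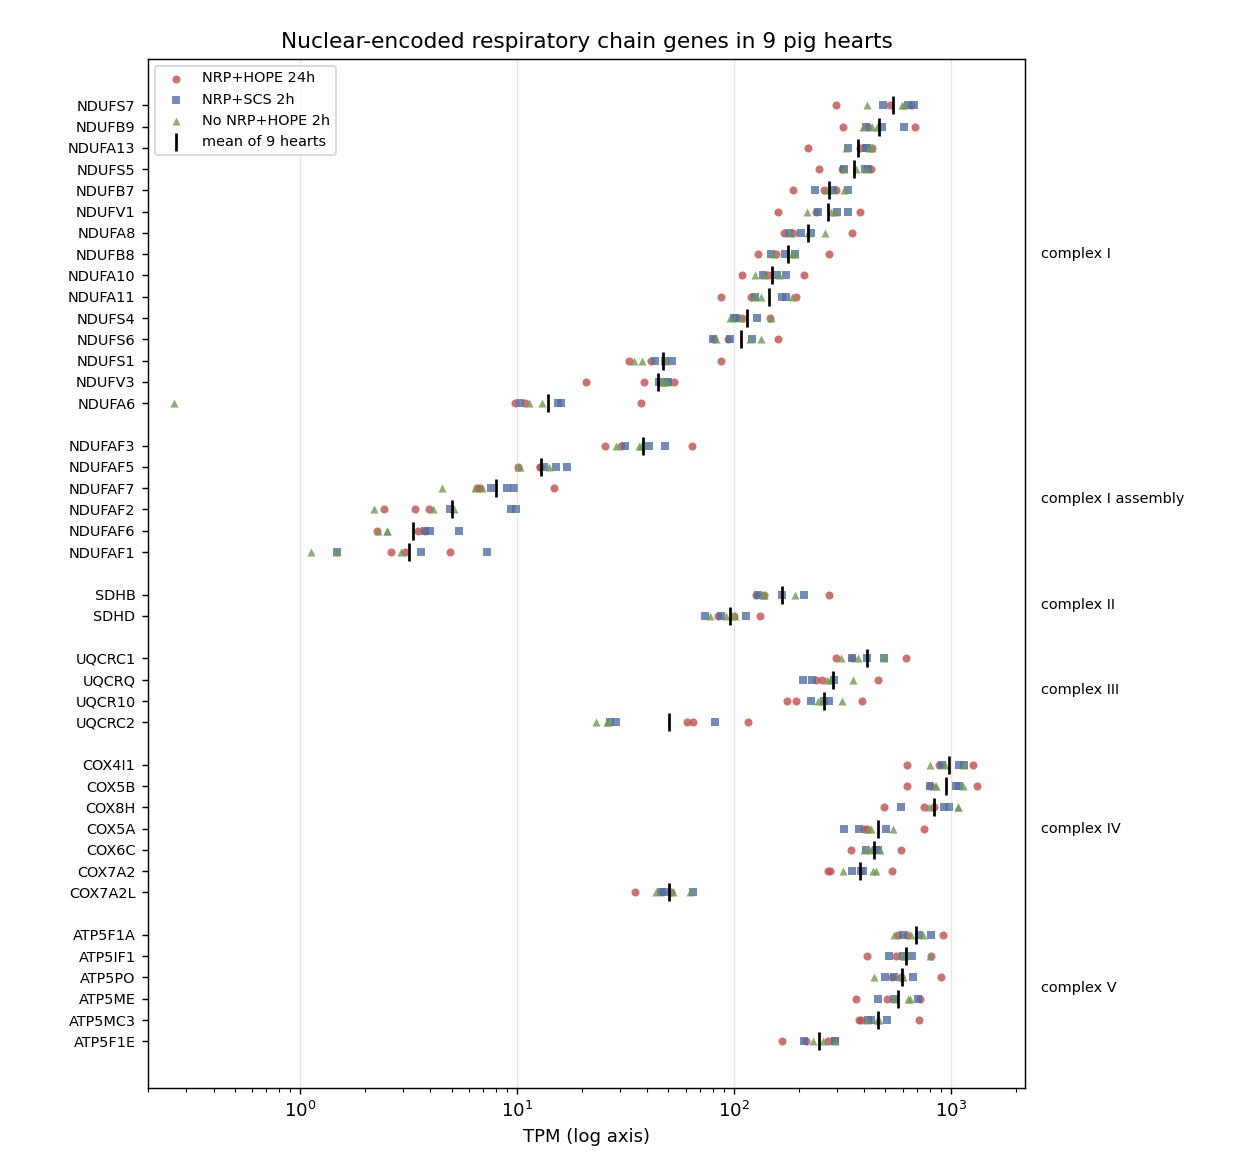
TPM on a log axis for each gene shown, all but 1 of the 41, in each heart, with 1 point per heart, coloured and shaped by group, and a vertical bar at the mean of 9 hearts. Complex IV and V subunits lie furthest right, the complex I assembly factors furthest left, and the groups overlap in nearly all genes; UQCRC2 spans 23.2 to 116 TPM and NDUFA6 has 1 heart at 0.262 TPM.

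In complex I the highest member was NDUFS7, a core subunit of the iron-sulphur chain, with a mean of 544 TPM. NDUFS1, the largest core subunit of the NADH-oxidising module, was the lowest of the 4 core members at 47.3 TPM. The 12 accessory subunits tested ranged from 466 TPM for NDUFB9 to 13.9 TPM for NDUFA6. The 6 NDUFAF genes encode assembly factors that help to build complex I but are not part of the finished enzyme. They had a lower median, 6.54 TPM beside 164 TPM for the subunits, and ranged from 38.1 TPM for NDUFAF3 to 3.17 TPM for NDUFAF1. NDUFAF3 thus lay above NDUFA6. In each heart their summed level was 1.45% to 2.43% of that of the 16 complex I subunits tested.

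In complex II, SDHB, the iron-sulphur subunit of succinate dehydrogenase, averaged 168 TPM, and SDHD, a membrane anchor, 96.0 TPM. SDHA, the flavoprotein that holds the catalytic site, was listed at 0 in all 9 hearts, as was the complex I subunit NDUFB10. Both are structural parts of their enzymes in every respiring tissue, and nothing is read from these zeros. COX8C, a testis isoform, was also listed at 0, and NDUFA4L2, a paralogue of the complex IV subunit NDUFA4, reached at most 1.25 TPM.

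Among the complex III subunits, UQCRC1 was highest at 411 TPM and UQCRC2, its partner in the core protein pair that faces the matrix, was lowest at 50.5 TPM. COX4I1 and COX5B were the highest members of complex IV, at 981 and 950 TPM. ATP5F1A, the alpha subunit of the catalytic head, was highest in complex V at 689 TPM, and ATP5IF1, which inhibits ATP hydrolysis by complex V when the membrane potential falls, was at 621 TPM. A search of the reference table by gene identifier named 13 further respiratory chain genes among the rows without a symbol, and all 13 passed the filter. The highest of them was NDUFA4, at 2167 TPM, above every gene of the 41.

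Between Group 1 and Group 2, 0 of the 41 genes passed the threshold, a log2 fold change beyond 1 in either direction at an adjusted p below 0.05 (limma on log2(TPM + 1), Benjamini-Hochberg adjustment over all genes), where 0.0255% of all genes did. An unadjusted p under 0.05 was reached by 2 of the 41, beside 4.97% of all genes. The assembly factor NDUFAF2 was the lower of these in Group 1 and the complex III subunit UQCRC2 the higher. The median log2 fold change of the 41 was -0.10, beside -0.12 for all genes, and 26 of 41 lay below 0, beside 64.1%. This count was not stable. It was 16 of 41, beside 49.96% of all genes, with median-of-ratios scaling, which sets each heart by its typical gene, 36 of 41 (68.9%) with array weights, 11 of 41 (59.0%) without pig 28 and 37 of 41 (80.1%) without pig 30, with the share of all genes in parentheses. The summed complex I subunits were 3341 ± 1164 TPM in Group 1 and 3603 ± 468 TPM in Group 2 (SD, n = 3 hearts). For complex II the sums were 285 ± 105 and 261 ± 56.5 TPM, and for complex III 1074 ± 445 and 961 ± 163 TPM. For complex IV the sums were 3883 ± 1298 and 4090 ± 583 TPM, and for complex V 2622 ± 793 and 2570 ± 338 TPM. Each of these differences was smaller than the SD of either group.

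Between Group 3 and Group 2, limma called 0 of 41 genes, where 0.0509% of all genes were called, and 1 of 41 reached an unadjusted p under 0.05, beside 7.22% of all genes. That gene was again NDUFAF2, lower in Group 3. The median log2 fold change of the 41 was -0.06, beside -0.07 for all genes, and 27 of 41 lay below 0, beside 57.7%. The count was 16 of 41, beside 49.3% of all genes, with median-of-ratios scaling, 33 of 41 (52.6%) with array weights, 17 of 41 (57.6%) without pig 25 and 33 of 41 (67.2%) without pig 34. The complex I sum was 3440 ± 395 TPM in Group 3, the complex II sum 245 ± 34.5 TPM, the complex III sum 991 ± 175 TPM, the complex IV sum 4193 ± 579 TPM and the complex V sum 2515 ± 273 TPM (SD, n = 3 hearts).

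Between Group 1 and Group 3, 0 of 41 were called, beside 0.0509% of all genes, and 1 of 41, UQCRC2, reached an unadjusted p under 0.05, beside 6.01%. Here 19 of 41 lay below 0, beside 53.9% of all genes, and the medians were 0.02 for the 41 and -0.03 for all genes. The count below 0 was 18 of 41, beside 49.8% of all genes, with median-of-ratios scaling, 31 of 41 (65.3%) with array weights, 9 of 41 (49.3%) without pig 28 and 33 of 41 (72.3%) without pig 30. These comparisons share hearts, and each is given for itself.

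The precision of these fits can be read from their intervals. The standard error of a log2 fold change had a median of 0.28 over the 41 genes, beside 0.35 over all genes tested. The 95% interval reached 0.61 to either side of the estimate at the median. It lay wholly within 1 log2 unit of 0 for 36 of the 41 genes between Group 1 and Group 2, for 35 between Group 3 and Group 2, and for 34 between Group 1 and Group 3.

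**Figure D2:**
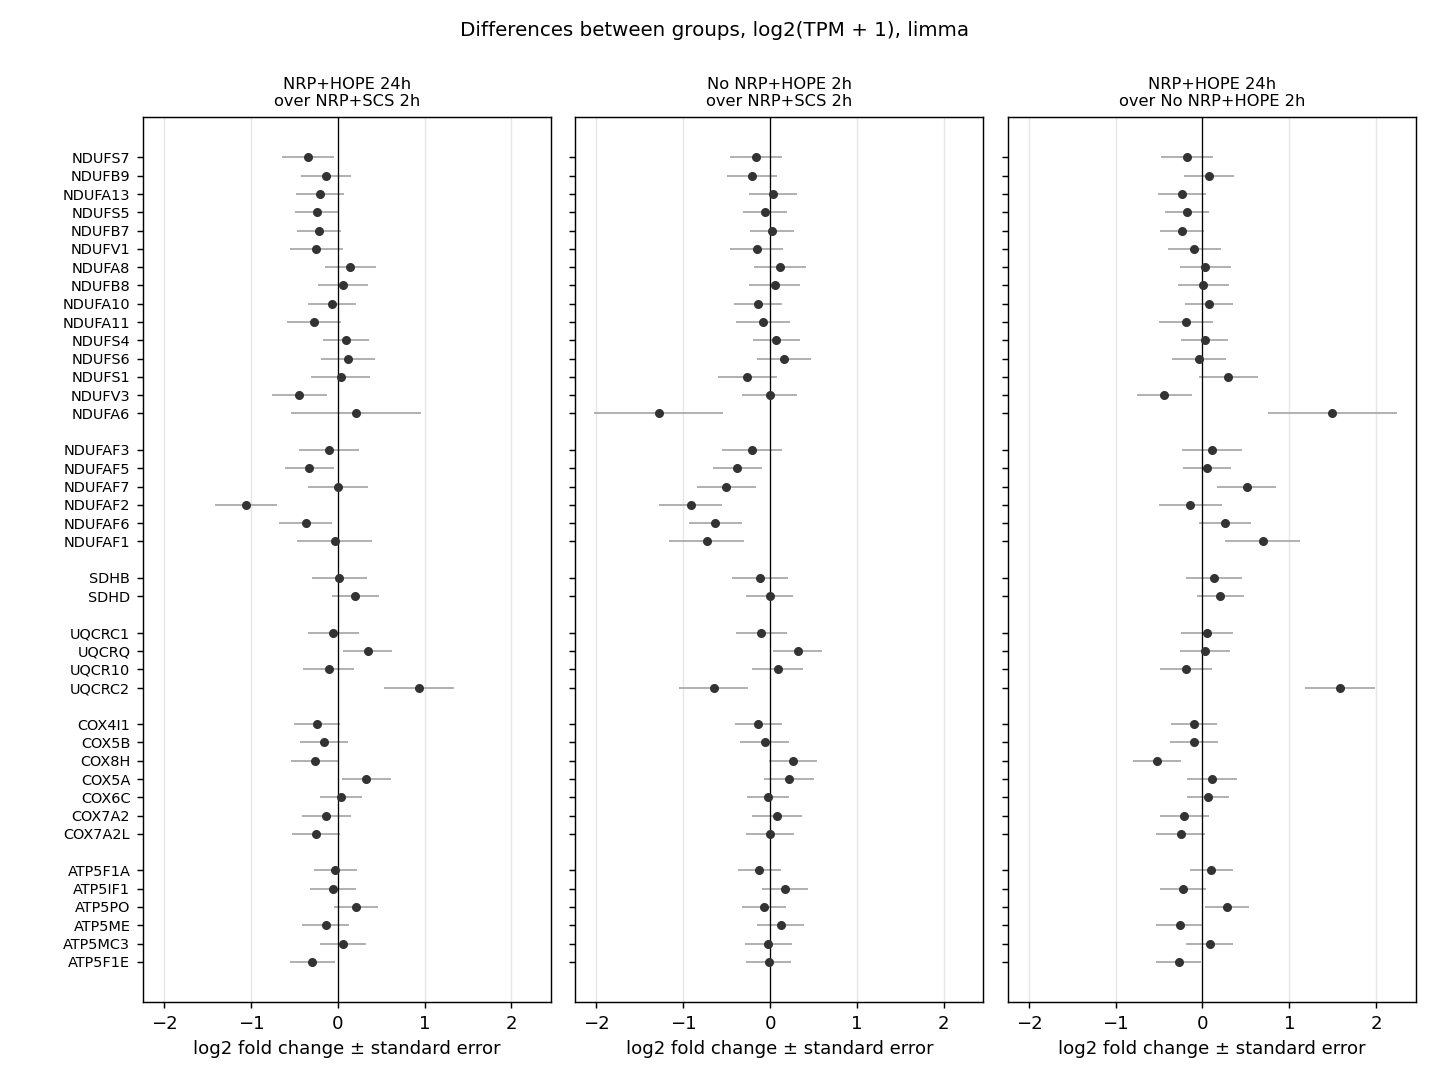
Log2 fold change of each gene shown, all but 1 of the 41, on the log2(TPM + 1) scale in the 3 comparisons, with bars of 1 standard error from limma over 9 hearts; genes are ordered by complex and level. Most points lie within 0.5 of 0, UQCRC2 stands to the right in both comparisons of Group 1, joined by NDUFA6 over Group 3, and all 6 assembly factors lie left of 0 in Group 3 over Group 2.

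UQCRC2 showed the widest difference between groups of any complex III gene. It stood at 60.9, 65.0 and 116 TPM in the Group 1 hearts (pigs 27, 28 and 30). In the Group 2 hearts it was 26.9, 81.6 and 28.7 TPM (pigs 24, 25 and 29), and in the Group 3 hearts 26.2, 23.2 and 26.1 TPM (pigs 31, 33 and 34). All 3 hearts of Group 1 lay above all 3 of Group 3, while pig 25 of Group 2 lay within the range of Group 1. The log2 fold change was 0.94 over Group 2 (standard error 0.40, limma unadjusted p = 0.0349, adjusted p = 0.954) and 1.58 over Group 3 (standard error 0.40, unadjusted p = 0.00148, adjusted p = 0.300). The second difference kept an unadjusted p under 0.05 in all 17 alternatives, with adjusted p from 0.153 to 0.625. The first kept it in 13 of 17, and its log2 fold change was 1.44 without pig 25 and 0.57 with array weights. Group 3 lay below Group 2 by little in pigs 24 and 29 (log2 fold change -0.65, unadjusted p = 0.128, adjusted p = 0.804), and the value was -0.14 without pig 25.

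The partner subunit UQCRC1 did not follow this pattern. Its values were 349, 297 and 619 TPM in Group 1, 411, 493 and 352 TPM in Group 2, and 374, 314 and 493 TPM in Group 3, and the 3 groups overlapped. The ratio of UQCRC2 to UQCRC1, which does not depend on how a heart is scaled, was 0.175, 0.219 and 0.188 in Group 1 and 0.166 in pig 25. In the other 5 hearts it lay between 0.0528 and 0.0816. Pig 25 thus lay nearer to Group 1 than to the other hearts of its own group. Against UQCRFS1, the Rieske iron-sulphur subunit of the same complex, the ratio was 1.08 to 1.20 in Group 1, 1.08 in pig 25 and 0.441 to 0.524 in the other 5 hearts. These ratios were chosen after the values of UQCRC2 were seen and are given without a test.

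Genes of which every heart of 1 group lay beyond every heart of the other were few. They were NDUFAF2 and NDUFAF5, both lower in Group 1 than in Group 2 (2 of 41, beside 9.82% of all genes). NDUFAF6, NDUFAF7 and UQCRC2 were lower in Group 3 than in Group 2 (3 of 41, beside 14.7%), and UQCRC2 was higher in Group 1 than in Group 3 (1 of 41, beside 7.48%). Each share lay below that of all genes.

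NDUFAF2, which associates with a late assembly intermediate of complex I, had 3.93, 3.41 and 2.44 TPM in Group 1. In Group 2 it had 4.91, 9.43 and 9.87 TPM, and in Group 3 2.20, 5.11 and 4.09 TPM. The hearts stored in HOPE lay below pigs 25 and 29, and pig 24 lay near the top of the HOPE hearts, with pig 33 above it. The log2 fold change over Group 2 was -1.05 for Group 1 (standard error 0.36, limma unadjusted p = 0.0109, adjusted p = 0.791). It was -0.92 for Group 3 (standard error 0.36, unadjusted p = 0.0231, adjusted p = 0.602). An unadjusted p under 0.05 was kept in 17 of 17 alternatives for the first and in 14 of 17 for the second (-0.65 without pig 31), and none gave an adjusted p under 0.05.

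In Group 3, all 6 NDUFAF genes had a log2 fold change below 0 over Group 2, beside 57.7% of all genes. The values ran from -0.21 for NDUFAF3 to -0.92 for NDUFAF2, with a median of -0.57 beside -0.07 for all genes. The 12 accessory subunits had a median of 0.01 in the same comparison, with 6 of 12 below 0, and the 4 core subunits a median of -0.16. NDUFAF6 had 2.53, 2.52 and 2.29 TPM in Group 3, below the 5.43, 3.96 and 3.76 TPM of Group 2, a log2 fold change of -0.63 with a standard error of 0.30 (limma adjusted p = 0.705). NDUFAF7, an arginine methyltransferase, had 4.51, 6.43 and 6.91 TPM against 8.99, 9.68 and 7.63 TPM, a log2 fold change of -0.50 with a standard error of 0.34 (limma adjusted p = 0.825). In both genes the groups did not overlap. NDUFAF4, one of the further genes named by identifier, had 10.5, 11.8 and 6.29 TPM against 14.8, 13.5 and 15.1 TPM, again without overlap (log2 fold change -0.59, limma adjusted p = 0.786, and -0.35 without pig 34).

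None of the 6 passed the adjusted threshold, and their levels are low, so that log2(TPM + 1) understates their folds. The count of 6 of 6 below 0 held in every alternative in which all 6 were tested, and the median was -0.37 without pig 25, which had the highest NDUFAF1 and NDUFAF5 of all hearts. NDUFAF1 stood at 7.29 TPM in pig 25 and at 3.60 and 1.48 TPM in the other Group 2 hearts, so its groups overlapped. Assembly factors of complex I that carry other names did not lie to the same side. Of the 8 tested, 3 were below 0 in this comparison, and their median was 0.13. In Group 1 over Group 2, 5 of 6 NDUFAF genes lay below 0, with a median of -0.21, beside 64.1% and -0.12 for all genes. That count was 3 of 6 with median-of-ratios scaling (median -0.07, beside 49.96% of all genes below 0). It was also 3 of 6 without pig 25 (63.3%), 27 (45.3%) or 28 (59.0%). It was 6 of 6 with array weights (68.9%), without the mitochondrially encoded genes (65.3%) and without pig 29 (62.7%) or 30 (80.1%).

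NDUFA6, an accessory subunit of the LYR protein family, had the widest spread of the 41 genes within groups (SD 1.29 on the log2 scale). It had 9.78, 10.9 and 37.5 TPM in Group 1, 16.0, 15.5 and 10.3 TPM in Group 2 and 11.4, 13.1 and 0.262 TPM in Group 3. The single low value belonged to pig 34, in which the accessory subunit NDUFA8 was not low, at 264 TPM beside 171 to 349 TPM in the other hearts. The log2 fold change of NDUFA6 in Group 3 over Group 2 was -1.28 (standard error 0.75, limma adjusted p = 0.789), and it was -0.15 without pig 34.

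**Figure D3:**
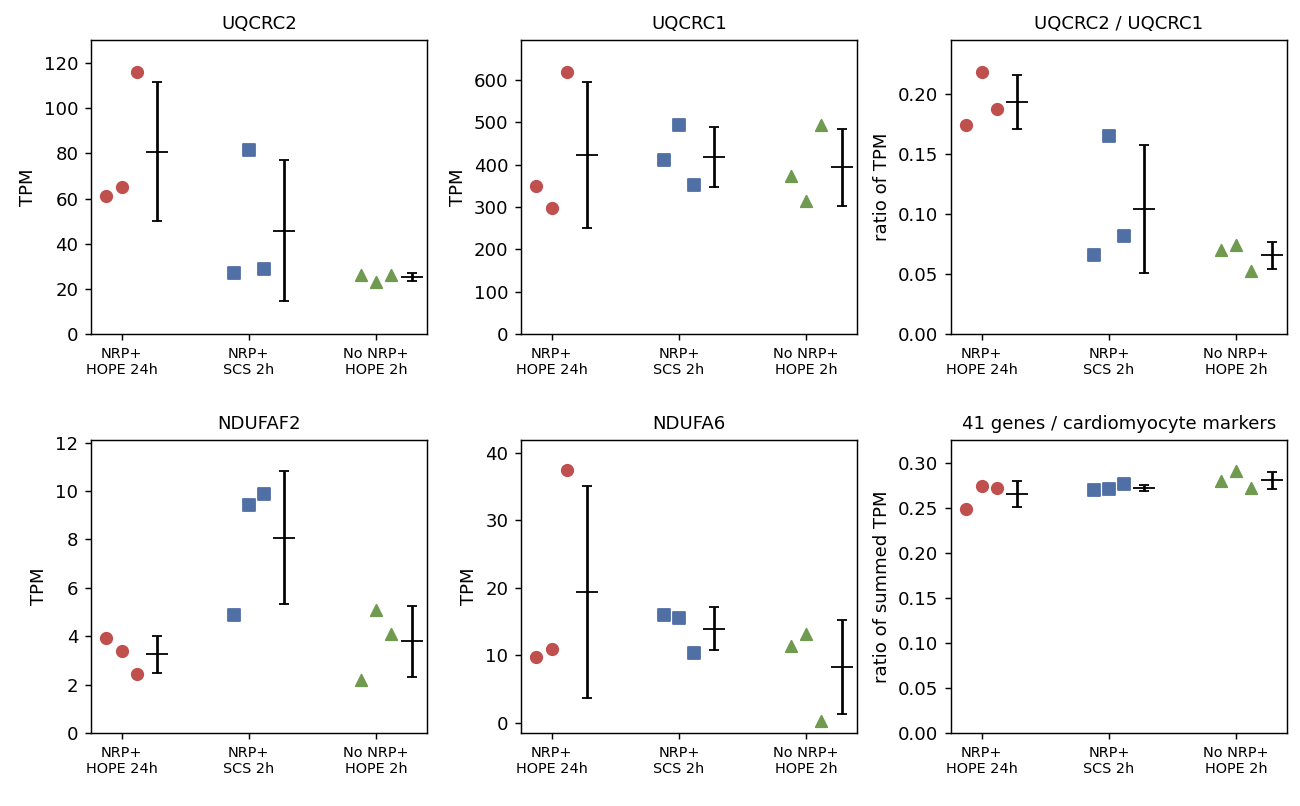
TPM or ratio per heart (points, by group) with the group mean and SD (bars, n = 3 hearts) for UQCRC2, UQCRC1, their ratio, NDUFAF2, NDUFA6 and the ratio of the summed 41 genes to the summed cardiomyocyte markers. UQCRC2 is at 60.9 TPM or more in the Group 1 hearts and in 1 Group 2 heart, NDUFA6 is at 0.262 TPM in 1 heart, and the last ratio lies between 0.249 and 0.291 in all 9 hearts.

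In the remaining complexes no gene reached an unadjusted p under 0.05. COX8H, the heart and muscle isoform of a small complex IV subunit, had 751, 492 and 839 TPM in Group 1, 983, 930 and 588 TPM in Group 2 and 1080, 793 and 1085 TPM in Group 3. Its log2 fold change of -0.53 in Group 1 over Group 3 (standard error 0.28, limma unadjusted p = 0.0772, adjusted p = 0.857), was the lowest of the 7 complex IV genes tested. It was -0.30 without pig 28, and its unadjusted p was under 0.05 in 5 of 17 alternatives. COX8A, the isoform of other tissues and one of the further genes, had a log2 fold change of -0.55 in the same comparison (limma adjusted p = 0.894), which was -0.23 without pig 28 and -0.88 without pig 30. The ratio of COX8H to COX8A was 5.48 to 10.2 over the 9 hearts, with group means of 7.19 ± 1.48, 7.88 ± 2.08 and 7.08 ± 1.63 in Group 1, Group 2 and Group 3 (SD, n = 3 hearts). Its exact two-sided permutation p was 0.7, 0.6 and 0.9 in the 3 comparisons, where 0.1 is the smallest that 3 hearts against 3 allow.

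ATP5MC1 and ATP5MC3 encode the same mature c subunit of the complex V rotor with different import sequences. Their ratio was 1.74 ± 0.147 in Group 1, 1.85 ± 0.283 in Group 2 and 2.06 ± 0.139 in Group 3 (SD, n = 3 hearts). The Group 1 hearts lay below the Group 3 hearts without overlap, by 0.25 on the log2 scale, which is the smallest p the exact permutation test allows (p = 0.1, and 0.6 and 0.3 in the other comparisons). This and the COX8 ratio make 6 such tests, none of which could fall under 0.05 with 3 hearts against 3.

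Other ratios within a complex differed between groups in single cases. ATP5IF1 over ATP5F1A, the inhibitor against the catalytic head, was 0.924, 1.11 and 1.08 in Group 3 and at most 0.890 in the other 6 hearts. COX5A over COX5B, partner subunits around the catalytic core of complex IV, was 0.497, 0.651 and 0.566 in Group 1 and 0.493, 0.505 and 0.477 in Group 3, all above the 0.344, 0.476 and 0.403 of Group 2. Both were picked after their values were seen and carry no test.

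Hearts of the same group differed more than group means did. The median deviation of the 41 genes from the mean of 9 hearts was -0.03 ± 0.48 in Group 1, 0.05 ± 0.19 in Group 2 and -0.01 ± 0.18 in Group 3 (log2 scale, SD, n = 3 hearts). In TPM as deposited, pig 30 had the highest value of the 9 hearts in 31 of the 41 genes, beside 33.8% of all genes, and pig 28 the lowest in 25 of 41, beside 16.0% of all genes. Both belong to Group 1. The complex I sum was 4585 TPM in pig 30 and 2278 TPM in pig 28, and the other 7 hearts lay between them, at 3067 to 3928 TPM. SDHB showed the same order, with 273 TPM in pig 30, 126 TPM in pig 28 and 129 to 210 TPM elsewhere.

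The number of genes highest in pig 30 changed with the scaling. After the 13 mitochondrially encoded genes were left out and the rest rescaled, pig 30 was still highest in 16 of 41 genes, beside 14.6% of all genes. With median-of-ratios scaling, pig 31 was highest in 19 of 41 and pig 30 in 8 of 41, beside 12.7% and 10.6% of all genes. Pig 28 was lowest in 21 and in 18 of 41 under these scalings, beside 13.6% and 14.3% of all genes. Median-of-ratios scaling put the median of the 41 genes 0.29 above the mean of 9 hearts in pigs 27 and 31, at the log2 scale, and 0.29 below it in pig 28, while the median of all genes stayed near 0 in every heart.

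**Figure D4:**
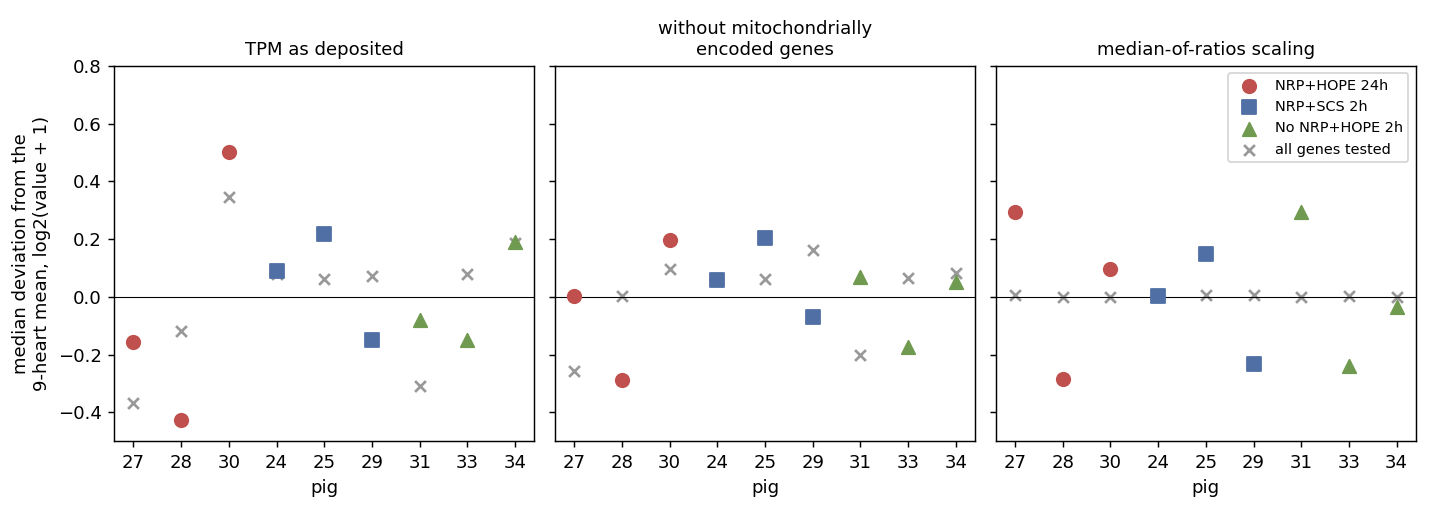
Median deviation of the 41 genes (coloured points) and of all genes tested (crosses) from the mean of 9 hearts on the log2(value + 1) scale, per pig, for TPM as deposited, TPM rescaled without the mitochondrially encoded genes, and median-of-ratios scaling. Hearts of each group lie on both sides of 0 under every scaling. For the 41 genes, pig 30 moves from 0.50 to 0.20 and 0.09, and pig 28 stays at -0.43, -0.29 and -0.29.

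The level of the 41 genes moved with the cardiomyocyte markers. The marker sum was also highest in pig 30 (60085 TPM) and lowest in pig 28 (31413 TPM). The 41 genes summed to 0.249 to 0.291 of the marker sum in every heart, a 1.17-fold range with a coefficient of variation of 4.07%. Their own sum differed 1.90-fold between the highest and the lowest heart in TPM. It differed 1.40-fold after rescaling without the mitochondrially encoded genes and 1.61-fold with median-of-ratios scaling. By group the ratio to the marker sum was 0.266 ± 0.0146 in Group 1, 0.273 ± 0.00349 in Group 2 and 0.281 ± 0.00930 in Group 3 (SD, n = 3 hearts). The part of cardiomyocyte content in the differences between hearts was not tested. The ratio to the marker sum was chosen after the values were seen.

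The 16 complex I subunits named by symbol summed to 0.797 to 0.897 of the 6 such complex IV subunits over the 9 hearts. The ratio was 0.868 to 0.897 in Group 2 and 0.797 to 0.843 in Group 3, without overlap, and 0.820 to 0.888 in Group 1. These sums leave out the further genes named by identifier, such as NDUFA4 at 2167 TPM. The separation is therefore not read as a difference of the whole complexes. Complex V subunits summed to 0.568 to 0.744 of the complex IV subunits, a coefficient of variation of 7.71%. The same measure was 14.4% for complex II and 10.8% for complex III. The complex II ratio was 0.0624 to 0.0815 in Group 1 and 0.0579 to 0.0592 in Group 3, also without overlap. These ratios were chosen with results of these data known and carry no test. The mitochondrially encoded subunits did not keep step with the nuclear ones. In complex IV the summed mitochondrial TPM was 31.0 times the sum of the 6 nuclear subunits in pig 30 and 81.6 times in pig 28. In complex I, with 16 nuclear subunits summed, it was 20.2 and 56.3 times. The nuclear sums leave out the further genes, such as NDUFA4 at 3040 TPM in pig 30. Ratios to all nuclear subunits would therefore be lower. Group means of the complex IV ratio were 61.0 ± 26.6, 52.8 ± 7.57 and 53.0 ± 11.5 in Group 1, Group 2 and Group 3, with pigs 30 and 28 as the lowest and highest of all hearts in the same group.

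Within groups the members varied together from heart to heart. After each group's mean was subtracted on the log2(TPM + 1) scale, the mean Pearson correlation over all pairs was 0.62 for the 41 genes and 0.32 for all genes tested (9 hearts, which share scaling and cell content). It was 0.53, against a value near 0 for all genes, with median-of-ratios scaling and 0.36 against 0.11 without the mitochondrially encoded genes. It was highest in complex III (0.82) and complex V (0.81) and lowest among the complex I assembly factors (0.27). These are descriptions over 9 hearts, without a test.

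The genes most like the mean of the others were SDHB (r = 0.98), UQCRQ (0.98), NDUFA10 (0.98), UQCR10 (0.98) and UQCRC1 (0.97), and 19 of 41 had an r over 0.9. The genes least like it were NDUFAF2 (-0.31), COX7A2L (0.03), NDUFAF6 (0.08) and NDUFA6 (0.13). COX7A2L, which joins complexes III and IV into supercomplexes and is not a subunit of the basic enzyme, had 35.0, 46.9 and 51.4 TPM in Group 1, 46.0, 47.8 and 65.1 TPM in Group 2 and 43.9, 62.6 and 52.4 TPM in Group 3. Its highest heart was pig 29 and its lowest pig 27.

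**Figure D5:**
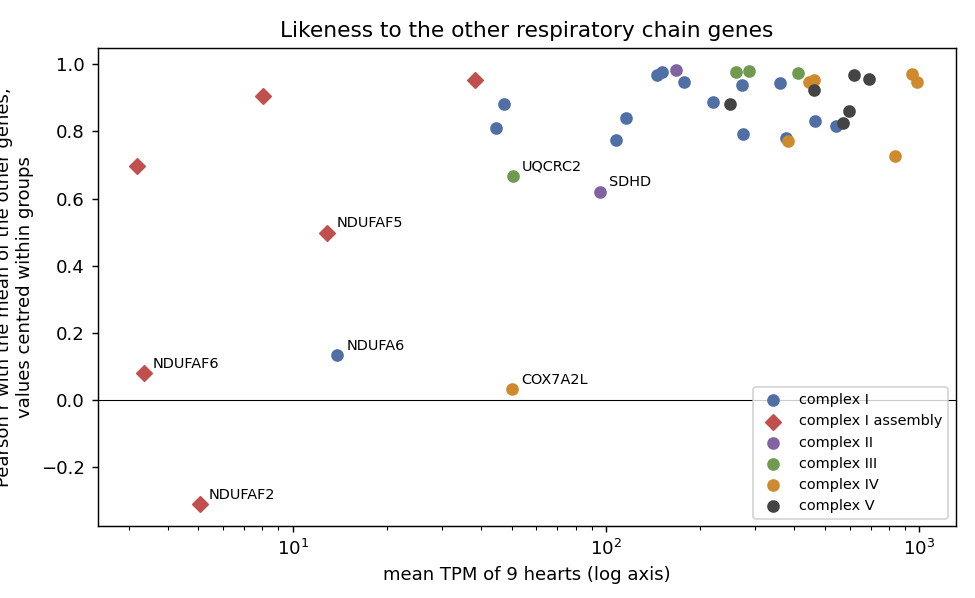
Pearson correlation of each gene shown, all but 1 of the 41, with the mean of the other respiratory chain genes (vertical axis, 9 hearts, log2(TPM + 1) centred within groups) against its mean TPM on a log axis, coloured by complex, with assembly factors as diamonds. Most subunits lie above 0.7, while NDUFAF2, COX7A2L, NDUFAF6 and NDUFA6 lie between -0.31 and 0.13.

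Other genes of the pathway were also described, from lists written with results of these data known. Of the 10 tested regulators of mitochondrial biogenesis, 0 were called by limma in any comparison, and 9 of 10 lay below 0 in Group 3 over Group 2, with a median of -0.32, beside 57.7% and -0.07 for all genes. TFB2M, a mitochondrial transcription factor, had 5.34, 0.400 and 3.47 TPM in Group 3, against 11.4, 5.52 and 7.01 TPM in Group 2, a log2 fold change of -1.34 with a standard error of 0.50 (limma unadjusted p = 0.0188, adjusted p = 0.583). It was higher in Group 1 than in Group 3, as was GABPB1, a subunit of nuclear respiratory factor 2 (log2 fold changes 1.22 and 0.80, unadjusted p = 0.0296 and 0.0456, limma adjusted p = 0.795 and 0.826). Without pig 33, the lowest heart, the TFB2M log2 fold changes were -0.70 for Group 3 over Group 2 and 0.58 for Group 1 over Group 3, and neither kept an unadjusted p under 0.05. PPARGC1A, a coactivator of these genes, was listed at 0 in all hearts, and nothing is read from this zero.

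Of 10 tested complex IV assembly genes, 1 reached an unadjusted p under 0.05, and only in Group 3 over Group 2. Of all genes, 7.22% reached it in that comparison, and 14.7% had groups that did not overlap. The gene was LRPPRC, which stabilises mitochondrial mRNAs. It had 10.5, 12.6 and 15.4 TPM in Group 3 and 23.3, 20.6 and 21.4 TPM in Group 2, without overlap (log2 fold change -0.73, standard error 0.30, limma unadjusted p = 0.0282, adjusted p = 0.627). CYCS, the cytochrome c that carries electrons from complex III to IV, was among the steadiest, with 488 to 671 TPM over the 9 hearts and log2 fold changes of 0.09, 0.03 and 0.07 in the 3 comparisons. The 11 genes of mobile carriers and coenzyme Q synthesis, the 3 of complex II assembly, the 2 of complex III assembly, 1 of complex V assembly, UCP2 and the 13 mitochondrially encoded subunits had 0 members with an unadjusted p under 0.05 in any comparison. The mitochondrially encoded subunits had median log2 fold changes of -0.03, 0.05 and -0.01.

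Markers of other cells were set beside these results, and 0 of them were called by limma. The smooth muscle and pericyte markers summed to 190 to 429 TPM, with MYH11 listed at 0 in every heart (nothing is read from it), the macrophage markers to 54.9 to 208 TPM and the T cell markers to 2.13 to 13.9 TPM. Neutrophil markers reached at most 13.2 TPM, and no adipocyte marker passed the filter. An unadjusted p under 0.05 was reached by S100A9, a neutrophil protein, lower in Groups 1 and 3 than in Group 2 (limma adjusted p = 0.792 and 0.140), and by HBB, beta globin, higher in both (adjusted p = 0.943 and 0.516). ALAS2, an enzyme of haem synthesis in red cells, was higher in Group 3 than in Group 2 (limma adjusted p = 0.658). Groups 1 and 3 are those whose perfusate held red cells, so for HBB and ALAS2 added blood and a difference of the tissue cannot be told apart. Between Groups 1 and 3 an unadjusted p under 0.05 was reached by ACTC1, cardiac actin, higher in Group 1. It was also reached by ACTA2 and CLEC14A, of smooth muscle and endothelium, lower (limma adjusted p = 0.829, 0.402 and 0.826). Of the 8 cardiomyocyte markers, 4 lay below 0 in Group 1 over Group 2 (median log2 fold change -0.01, beside 64.1% and -0.12 for all genes). In Group 3 over Group 2 it was 7 (-0.12, beside 57.7% and -0.07) and in Group 1 over Group 3 it was 3 (0.09, beside 53.9% and -0.03). Of the 7 endothelial markers, 7 lay below 0 in Group 1 over Group 2 (median log2 fold change -0.54, beside 64.1% and -0.12 for all genes), 5 in Group 3 over Group 2 (-0.33, beside 57.7% and -0.07) and 6 in Group 1 over Group 3 (-0.31, beside 53.9% and -0.03). Their part in the values of UQCRC2 and the NDUFAF genes was not tested.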

How the data were processed

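RNA from 9 flash-frozen apex biopsies was sequenced in paired ends after oligo(dT) enrichment. Per the submitters' processing notes and methods, reads were trimmed with Trimmomatic 0.36, mapped with STAR 2.5.2b and counted with featureCounts (Subread 1.5.2). The authors deposited TPM values; the genome build and the gene lengths behind them are not given in the sources used here, and no coordinates or sequences are printed. The table holds 9 more columns whose names match none of the samples, and they were left aside. Hearts were grouped by the pig number in the labels, and pigs are not shared between groups.

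Log2(TPM + 1) was fitted with limma 3.58.1 (statmod 1.5.0) in R 4.3.3, with 1 mean per group over 9 hearts and a variance trend. The filter was 1 TPM or more in 3 or more hearts, which 11782 genes met; p-values were two-sided and adjusted over them by Benjamini-Hochberg. A call needed an adjusted p below 0.05 and a log2 fold change beyond 1 in either direction. The study itself tested counts with DESeq2, which TPM do not allow. Isoform ratios were compared by exact permutation. Summaries used Python 3.11.15, numpy 2.4.6, pandas 2.3.3 and scipy 1.17.1, and figures matplotlib 3.10.9.

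The members, lists and tests were chosen with earlier results of these data known. Any member could be named, in depth the highest of each complex, the 10 with the smallest p per comparison, the largest folds per complex, isoform pairs and the extremes of spread; of other lists, genes at an unadjusted p under 0.05 and the highest and lowest folds. NDUFA4 and NDUFA4L2 were placed with complex IV. One member is not reported here by itself and is left out of the plots by gene, but stays in the counts, sums and medians. A planned search of promoters for motifs was not run, since no promoter sequence was used here. Alternatives covered scaling, filter, pseudocount, variance model, weights and each heart left out.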

Additional observations from a re-analysis of the deposited data

How the results depend on the processing

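No alternative called any of the 41 genes. The number at an unadjusted p under 0.05 in Group 1 over Group 2 was 2, and it was 11 with array weights (15.4% of all genes), 4 with median-of-ratios scaling (8.54%) and 1 to 4 with each heart left out (4 without pig 30, beside 10.7% of all genes, and 1 without pig 24 or 29, beside 3.50% and 3.96%). In Group 3 over Group 2 it was 1, and 5 with array weights (15.8% of all genes), 2 without the variance trend (6.99%), 2 with median-of-ratios scaling (12.4%), 2 with only the 6 hearts compared (9.18%), 2 with quantile normalization (12.3%), 2 without the mitochondrially encoded genes (11.6%), and 0 (without pig 25, 5.27%) to 2 (without pig 33, 7.43%) with each heart left out. In Group 1 over Group 3 it was 1, and 5 with array weights (15.9% of all genes), 3 with quantile normalization (11.4%), 2 with median-of-ratios scaling (11.7%), 2 without the mitochondrially encoded genes (9.35%), and 1 to 5 (5 without pig 30, 9.49%) with each heart left out. The causes were not tested.

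Of 761 log2 fold changes followed under the alternatives, those of the genes the naming rule gave for each comparison, 741 kept direction and side of the threshold. With array weights the direction turned for NDUFA6 (-0.19) and SDHB (-0.32) in Group 1 over Group 2, NDUFS6 (-0.11) in Group 3 over Group 2, and COX5A (-0.037) and SDHB (-0.057) in Group 1 over Group 3. With median-of-ratios scaling it turned for UQCR10 (0.042) in Group 1 over Group 2 and SDHD (0.10) in Group 3 over Group 2, where quantile normalization gave SDHD 0.081. Other members near 0 turned too, since with median-of-ratios values in Group 1 over Group 2 the genes below 0 went from 2 to 0 of 4 in complex III and from 4 to 1 of 6 in complex V. With each heart left out, Group 1 over Group 2 ranged from -0.018 to 0.36 for ATP5PO, -0.37 to 0.54 for NDUFA6, -0.33 to 0.22 for SDHB and -0.46 to 0.11 for UQCR10. Group 3 over Group 2 ranged from -0.29 to 0.058 for SDHB and -0.15 to 0.16 for SDHD. Group 1 over Group 3 ranged from -0.18 to 0.27 for COX5A, -0.22 to 0.34 for SDHB and -0.55 to 0.024 for UQCR10. The log2 ratio of COX8H to COX8A ranged from -0.29 to 0.079, -0.31 to 0.053 and -0.15 to 0.21 in the 3 comparisons. Outside the members, the unadjusted p of TFB2M, GABPB1, LRPPRC, ACTC1, CLEC14A and ALAS2, and of HBB and S100A9 in Group 1 over Group 2, was no longer under 0.05 with at least 1 heart left out. S100A9 in Group 3 over Group 2 passed the call threshold without pig 29 (log2 fold change -2.62, limma adjusted p = 0.0494). Median-of-ratios scaling moved the median of all genes by 0.12 in Group 1 over Group 2. The log2 ratios of group mean sums by complex moved by less than the spread of hearts in 120 of 120 values, but their direction turned in 31 of them, 25 with a heart left out, 5 with median-of-ratios scaling and 1 without the mitochondrially encoded genes.

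No paired analysis was possible because no pig number is shared between groups. Read depth is unknown, so counting error cannot be given.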
